A study of Mus musculus with 6 samples.

Results

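The tumor suppressor p53, encoded by Trp53, its inhibitors and a set of its target genes were examined in the heads of E8.5 mouse embryos that lacked the histone demethylase Jarid1b. The list held 10 genes: Trp53, its inhibitors Mdm2 and Mdm4, the cell cycle targets Cdkn1a and Ccng1, the apoptosis targets Bax and Bbc3, and the targets Phlda3, Sesn2 and Trp53inp1. A gene was taken as measured when the platform annotation paired a probe set with its symbol alone, which held for 7 of the 10, each with 1 probe set. Trp53 and Bax were not analysed here, and Cdkn1a was left out because its probe set is also paired with a second symbol, 4930567H12Rik. These 7 genes were set within 21789 probe sets of 19938 genes. The level of Trp53 mRNA itself is therefore not part of what follows.

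RNA came from 3 pools of Jarid1b knockout heads and 3 pools of Jarid1b heterozygote heads, each of 4 heads, all on a C57BL/6 background and untreated, and Affymetrix Gene 1.0 ST arrays for the mouse were used to measure it. The knockouts carried on both alleles a constitutive deletion of an exon flanked by loxP sites, made with Cmv-cre, and the heterozygotes carried it on 1 allele. The controls thus shared the deleted allele with the knockouts, and no wild-type heads were compared. Values below are log2 of the intensities that the authors summarized with RMA, and differences are knockout minus heterozygote on that scale, where 1 unit is a doubling.

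In unstressed cells p53 is kept low by Mdm2, a ubiquitin ligase that marks it for degradation, and by Mdm4, a related protein that masks its activation domain. After DNA damage and other stress p53 escapes this control and switches on genes that stop the cell cycle, start apoptosis or limit oxidative and metabolic damage. Mdm2 is itself such a target, so that it closes a feedback loop, and the summed output of target genes is commonly read as a measure of p53 activity. In the mouse embryo, excess p53 activity is known from mutants to disturb closure of the neural tube and growth of the head. The arrays thus allowed the question of whether this program differed between knockout and heterozygote heads.

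p53 binds DNA as a tetramer on a pair of half-sites, and the promoters of 6 of the 7 measured genes were searched for the p53 half-site consensus of 10 bases. Sequences were RefSeq promoters of the mouse build GRCm38.p6, from 250 bases before to 50 after the start of transcription, and the consensus reads the same on both strands. An exact match lay in the promoters of Ccng1 and Mdm2 and in no listed promoter of Mdm4, Bbc3, Phlda3 or Sesn2, while 8.36% of all 32851 promoters held one. The stretches around both matches are shown because they were the only ones among these 6 genes (Trp53inp1 was not searched), with the half-site in capitals:
Ccng1, minus strand, chr11:40755437-40755506: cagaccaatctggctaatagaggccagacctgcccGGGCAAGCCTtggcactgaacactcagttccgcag
Mdm2, minus strand, chr10:117710898-117710969: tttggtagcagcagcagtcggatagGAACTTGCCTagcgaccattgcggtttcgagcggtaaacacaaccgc
The half-site of Ccng1 began 185 bases before the start and that of Mdm2 began 186 bases before it. Directly before the capitals in Ccng1, the next 10 bases matched the half-site consensus at 9 of 10 positions, whereas the best neighbor in Mdm2 matched at 6 of 10. A half-site with a neighbor of at most 1 mismatch, up to 13 bases away, was found in 1.09% of promoters. These are matches of letters, and binding of p53 was not measured.

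The targeted gene was checked first. Jarid1b had log2 intensities of 7.63, 7.47 and 7.71 in knockout pools, against 9.17, 9.12 and 9.16 in heterozygote pools. Its log2 difference was -1.55 with a standard error of 0.07 (limma, adjusted p = 6.29e-04), and it was the 1 probe set of 21789, or 0.00459%, at an adjusted p under 0.05. Markers of head neural ectoderm were present in every pool, and the 9 markers summed to linear intensities of 2842 to 2947 in knockout pools and 2889 to 3033 in heterozygote pools. Heart markers were also present, and their 7 genes summed to 12610 to 13140 in knockout pools and 12690 to 13630 in heterozygote pools, so that the pools held more than neural tissue.

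Some markers of these tissues leaned with genotype, although none passed the adjusted threshold of 0.05 in limma. Of the 9 neural markers, Rax, at -0.20, and Six3, at -0.17, both factors of the anterior neural plate, were lower at a p under 0.05 before adjustment, with all knockout pools below the heterozygote pools, and Sox1 was higher at 0.20 with overlapping groups. That is 22.2% lower and 11.1% higher, beside 4.66% and 5.97% of all probe sets. Otx2 was at -0.08 with all knockout pools below. Pax6, at 0.15, Sox3, at 0.10, Sox2, at 0.01, Nes, at -0.04, and Lhx2, at -0.05, had overlapping groups. Of the 9 differences, 4 were positive and 5 negative. Of the 7 heart markers, 3 transcription factor genes, or 42.9%, were lower before adjustment: Hand2 at -0.24 with all knockout pools below (limma, adjusted p = 0.358), Tbx5 at -0.30 and Gata4 at -0.22, the last 2 with overlapping groups. After quantile or cyclic loess normalization only Hand2 of the heart list and Rax of the neural list were lower at a p under 0.05, 1 gene in each. The contractile genes Myl7, Tnnt2 and Actc1, which carry most of the heart sum, were at -0.10, 0.01 and 0.06. In the values as deposited, none of 6 markers of head mesenchyme and neural crest and 5 of endothelium reached a p under 0.05. Tfap2a, at -0.14, had all knockout pools below. Of the 6, 1 was higher at a p under 0.05 after quantile or cyclic loess normalization, and 1 was lower after median centring of the arrays. The part of these tissues in the levels of the p53 genes was not tested.

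None of the 7 measured genes passed the test, and for each of them the knockout and heterozygote pools overlapped. The log2 differences ranged from -0.08 for Phlda3 to 0.14 for Ccng1, with 4 positive and 3 negative, and adjusted p-values in limma lay between 0.554 and 0.986. At an unadjusted p under 0.05 the count was 0 of 7, beside a background of 10.6% of probe sets in either direction, 5.97% higher and 4.66% lower in knockouts. Without dim probe sets this background was 2.44% higher and 10.5% lower, over 10962 probe sets. The knockout pools lay all above the heterozygote pools for 8.03% of probe sets and all below for 9.03%. The median difference over the 7 genes was 0.0040 and over all probe sets -7.25e-04. A missed threshold does not show equal levels, so the intervals matter more: the 95% confidence intervals of all 7 genes lay within -0.29 and 0.32 on the log2 scale. In fold terms these bounds are 0.817 and 1.25, so that a 1.5-fold difference in measured intensity fell outside the interval of each of the 7 genes. Folds of intensity understate those of mRNA where a signal lies near background, and Bbc3, the dimmest of the 7, fell under the level of 6.45 used to leave out dim probe sets. With 3 pools per genotype, the smallest p that an exact permutation test could give for any gene is 0.1. In pooled heads, a change in the number of expressing cells and a change in RNA per cell cannot be told apart.

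**Figure D1:**
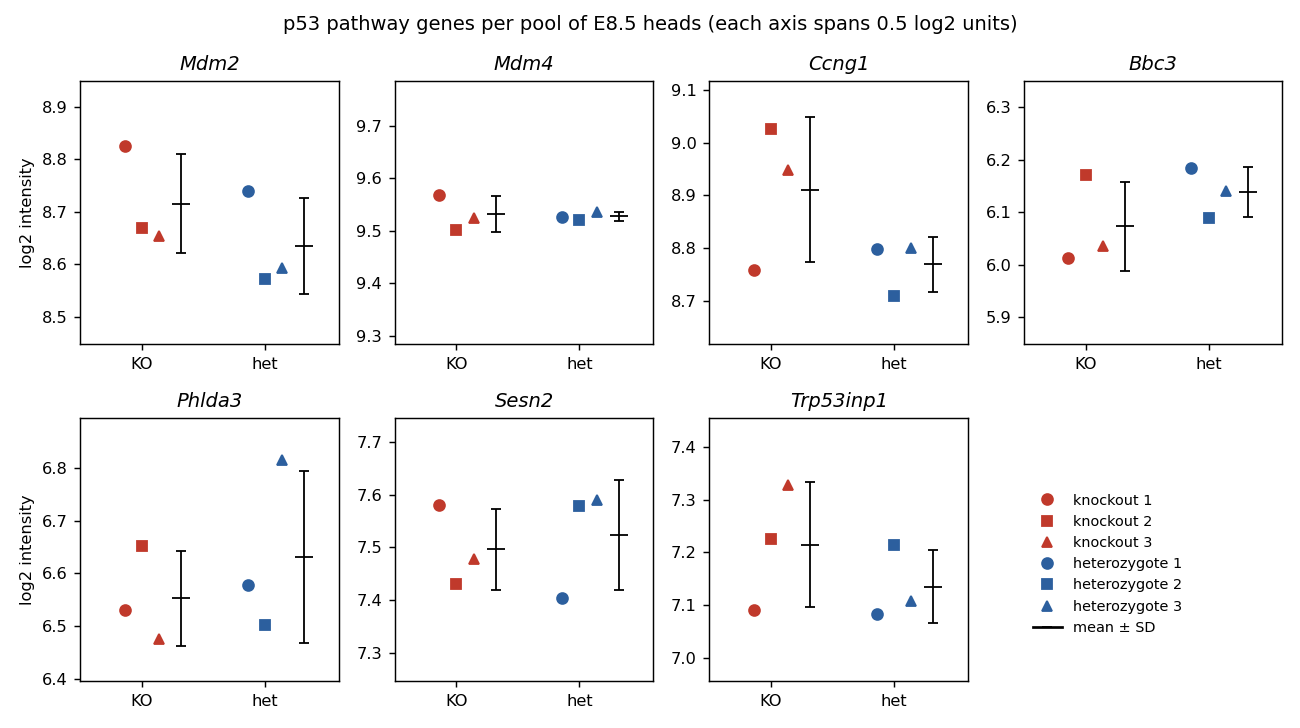
Log2 intensity (vertical axis) of the 7 measured genes in each pool of E8.5 heads, with knockout pools in red on the left, heterozygote pools in blue on the right, symbols for the replicates, and the mean with SD in black. Each axis spans 0.5 log2 units. The 2 groups overlap in every panel, and Mdm4 varies least.

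The inhibitors were described first. Mdm2 had log2 intensities of 8.82, 8.67 and 8.65 in knockout pools, against 8.74, 8.57 and 8.59 in heterozygote pools. In both groups replicate 1 was the highest, and the heterozygote replicate 1 lay above 2 of the 3 knockout pools. Mdm2 differed by 0.08 on the log2 scale (standard error 0.07), and the 95% confidence interval ran from -0.09 to 0.25 (limma, adjusted p = 0.722). Mdm4 had log2 intensities of 9.57, 9.50 and 9.53 in knockout pools, against 9.53, 9.52 and 9.54 in heterozygote pools. Its 6 pools spanned 0.067 log2 units, and the 3 heterozygote pools spanned only 0.016. For Mdm4 the log2 difference was 0.004, and its interval, from -0.11 to 0.12, was the narrowest of the 7 genes (limma, adjusted p = 0.986). The pooled SD within genotypes was 0.025 for Mdm4, smaller than for all but 5.25% of the 1887 probe sets within 0.5 log2 units of its intensity.

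Of the cell cycle targets only Ccng1, which encodes cyclin G1, was measured. Cyclin G1 recruits a phosphatase to Mdm2 and takes part in the recovery from p53 activation. Ccng1 had log2 intensities of 8.76, 9.03 and 8.95 in knockout pools, against 8.80, 8.71 and 8.80 in heterozygote pools. Knockout replicates 2 and 3 lay above every heterozygote pool, and knockout replicate 1 lay below 2 of them. The mean was 8.91 ± 0.14 in knockouts and 8.77 ± 0.05 in heterozygotes (SD, n = 3 pools each). This log2 difference of 0.14 for Ccng1, or 1.10-fold, had a standard error of 0.08, and its 95% confidence interval ran from -0.04 to 0.32 (limma, adjusted p = 0.554). It was the largest of the 7 differences in size. It was 0.22 when knockout replicate 1 was left out (limma, adjusted p = 0.395) and 0.08 when knockout replicate 2 was (adjusted p = 0.720), and its adjusted p lay between 0.395 and 0.768 over the alternatives tried.

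Markers of blood and of yolk sac also differed between the pools. The embryonic globin Hba-x, a product of primitive red cells, had log2 intensities of 7.02, 10.09 and 7.78 in knockout pools, against 7.02, 6.18 and 6.99 in heterozygote pools. The knockout pools had the same order as for Ccng1 in Hba-x, Hbb-bh1, Hbb-y and Gata1 but not in Alas2, Klf1 or Epor, which is 4 of 7 measured blood markers. Heterozygote replicate 2, the lowest pool for Ccng1, was the lowest for 5 of the 7. The share of all probe sets with that order, or with that lowest pool, was not counted. Markers of the same cells are also not separate matches. This order of knockout pools was not particular to Ccng1. Bbc3 shared it, at 6.01, 6.17 and 6.04, with a log2 difference of -0.06. Heterozygote replicate 2 was also the lowest heterozygote pool for Bbc3. Klf1, a red cell transcription factor gene, had all knockout pools above the heterozygote pools at a log2 difference of 0.26 (limma, adjusted p = 0.398). Over these 7 markers, of 8 listed, the summed linear intensity ranged from 388 to 1882 in knockout pools and from 303 to 399 in heterozygote pools. Visceral endoderm of the yolk sac, which lies outside the embryo, stood apart by its markers in knockout replicate 3: the 9 markers summed to 3745 there, against 8406 and 8407 in the other knockout pools and 7216 to 8529 in heterozygote pools. All 9 endoderm markers had negative differences, from -0.64 for Apom to -0.04 for Amn, and none reached a p under 0.05 before adjustment. No gene of either list passed the adjusted threshold of 0.05 in limma, and the part of these cells in the level of Ccng1 was not tested.

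**Figure D2:**
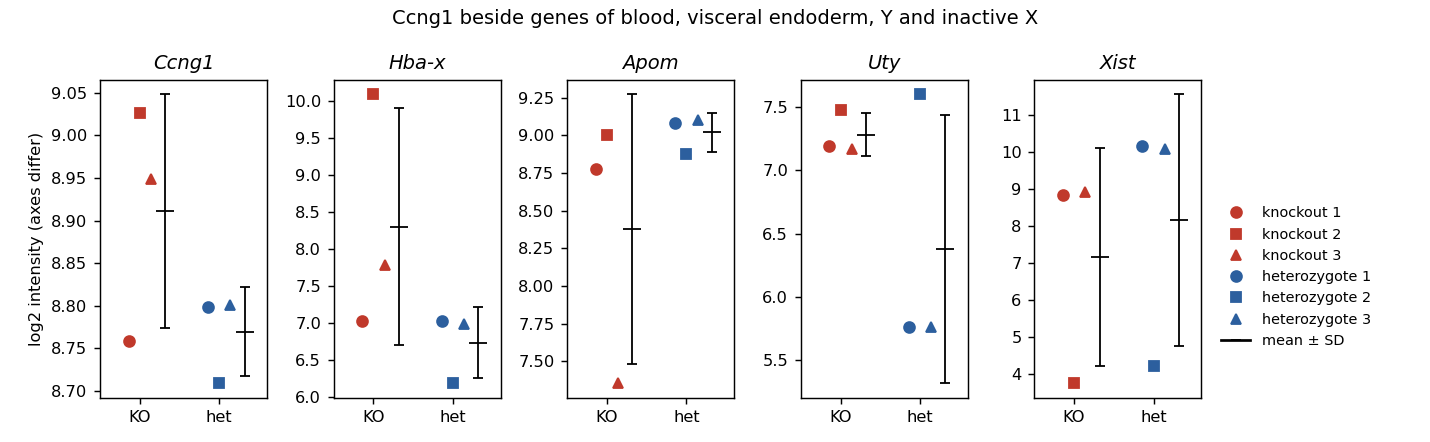
Log2 intensity (vertical axes, which differ) of Ccng1, the globin Hba-x, the visceral endoderm gene Apom, the Y-linked Uty and Xist in each pool, with knockouts in red on the left, heterozygotes in blue on the right, and mean with SD in black. Knockout replicate 2 is the highest pool for both Ccng1, at 9.03, and Hba-x, at 10.09.

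Sex-linked genes also differed between the pools. Xist, transcribed from the inactive X, had log2 intensities of 8.82, 3.74 and 8.91 in knockout pools, against 10.17, 4.22 and 10.08 in heterozygote pools. The Y-linked Uty was at 7.20, 7.48 and 7.17 in knockout pools, against 5.77, 7.60 and 5.77 in heterozygote pools. Its log2 difference was 0.90 with overlapping groups, so that Y-linked signal and genotype were partly confounded. With the mean of 3 Y-linked genes as a covariate, an alternative chosen after seeing the data, the log2 difference of Ccng1 was 0.17 with a standard error of 0.10 (limma, adjusted p = 0.682). Phlda3 then had a difference of 0.0011, and the other 5 genes kept their direction.

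Among apoptosis targets, Bbc3 was measured. It encodes Puma, a BH3-only protein that frees Bax and Bak to permeabilize mitochondria, and it is needed for much of p53-dependent death in mouse thymocytes. Bbc3 had log2 intensities of 6.01, 6.17 and 6.04 in knockout pools, against 6.18, 6.09 and 6.14 in heterozygote pools. The lowest 2 pools were knockouts, but knockout replicate 2 lay above 2 of the 3 heterozygote pools. Bbc3 differed by -0.06 on the log2 scale, with a standard error of 0.06 and an interval from -0.21 to 0.08 (limma, adjusted p = 0.741), which bounds the intensity and, at this low level, not the mRNA.

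Of the targets with roles in survival and stress, Phlda3 encodes a PH-domain protein that competes with Akt for membrane lipids and so dampens its signal. Phlda3 had log2 intensities of 6.53, 6.65 and 6.48 in knockout pools, against 6.58, 6.50 and 6.82 in heterozygote pools. Heterozygote replicate 3 was the highest pool and the other 5 lay within 6.48 and 6.65. Phlda3 differed by -0.08 on the log2 scale, with a standard error of 0.09 and an interval from -0.29 to 0.13, the widest of the 7 genes (limma, adjusted p = 0.781). Without heterozygote replicate 3 it was 0.01.

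Sesn2 encodes sestrin 2, which restrains mTORC1 when amino acids are short and takes part in antioxidant defense. Sesn2 had log2 intensities of 7.58, 7.43 and 7.48 in knockout pools, against 7.40, 7.58 and 7.59 in heterozygote pools. The lowest pool was a heterozygote and so was the highest. Between genotypes Sesn2 differed by -0.03 on the log2 scale, with a standard error of 0.07 and an interval from -0.20 to 0.14 (limma, adjusted p = 0.911).

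Trp53inp1 encodes a nuclear protein that promotes p53-dependent arrest and death and also acts in autophagy. Trp53inp1 had log2 intensities of 7.09, 7.23 and 7.33 in knockout pools, against 7.08, 7.21 and 7.11 in heterozygote pools. The 2 highest pools were knockouts, and knockout replicate 1 lay beside the lowest heterozygote pool. On the log2 scale Trp53inp1 differed by 0.08, with a standard error of 0.08 and an interval from -0.09 to 0.25 (limma, adjusted p = 0.731).

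**Figure D3:**
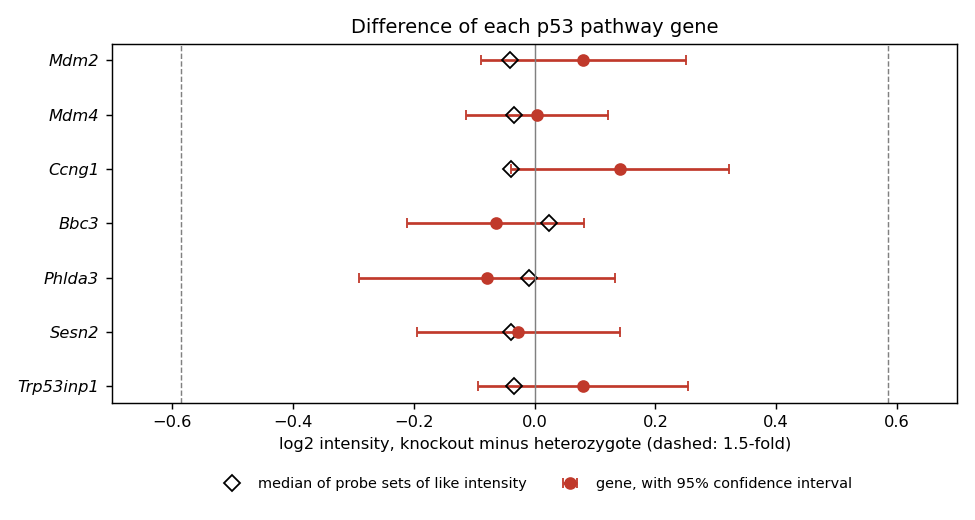
Log2 difference, knockout minus heterozygote (horizontal axis), of each measured gene (red points) with its 95% confidence interval, beside the median difference of all probe sets within 0.5 log2 units of its intensity (open diamonds). The dashed lines mark 1.5-fold. Every interval includes 0 and lies inside the dashed lines.

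The direction of small differences has to be read beside a shift with intensity. Bright probe sets tended to be lower in knockout pools, with a median difference of -0.04 among the 2488 probe sets within 0.5 log2 units of Ccng1 and of -0.04 among the 2596 around Mdm2. Around Bbc3, at a lower intensity, the median was 0.02. Cyclic loess normalization, which removes such a shift between arrays, gave log2 differences of 0.18 for Ccng1 (limma, adjusted p = 0.608) and 0.0045 for Sesn2, which thereby turned positive, and a median over the 7 genes of 0.04.

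The 7 genes were also set together, pool by pool. Measured against each gene's own mean over 6 arrays, the median deviation of the 7 genes was between -0.06 and 0.05 in knockout pools and between -0.02 and 0.01 in heterozygote pools. The number of genes above their own mean was 3, 4 and 2 of 7 in knockout pools, against 2, 2 and 4 of 7 in heterozygote pools. The highest pool was a knockout for Mdm2, Mdm4, Ccng1 and Trp53inp1 and a heterozygote for Bbc3, Phlda3 and Sesn2. The 3 knockout pools differed in which gene was farthest above its mean: Mdm2 in replicate 1, Ccng1 in replicate 2 and Trp53inp1 in replicate 3.

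Mdm4 and Phlda3 lie on chromosome 1 on either side of Jarid1b, with 60 annotated genes between Mdm4 and Jarid1b and 28 between Jarid1b and Phlda3 in the RefSeq annotation. Of the genes in this interval, 40 others were measured, and their median log2 difference was 0.03. None passed the adjusted threshold of 0.05 in limma. Before adjustment, 3 were higher in knockouts at a p under 0.05 (Mgat4e at 0.36, Chit1 at 0.18 and Lmod1 at 0.18) and Klhl12 was lower at -0.22. That is 7.5% and 2.5% of the 40, beside 5.97% and 4.66% of all probe sets. The 3 higher genes were dim, under a log2 intensity of 6.45 on 4 or more arrays, with knockout means of 4.50 for Mgat4e and 4.36 for Chit1. Klhl12 was not dim. Chit1 had overlapping groups. Without dim probe sets the background was 2.44% higher and 10.5% lower. Mdm4, at 0.004, and Phlda3, at -0.08, lay within the range of these neighbors.

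The rest of the pathway was followed through lists of regulators, further targets, effectors of apoptosis and relatives of the 10 genes. Of 107 listed genes, 99 others than the 7 were measured. None of them passed the adjusted threshold of 0.05, and 0.391 was the smallest adjusted p in limma. Before adjustment, 4 were higher and 4 lower in knockouts at a p under 0.05, or 4.04% in each direction, beside the background of 5.97% and 4.66%. The knockout pools lay all above the heterozygote pools for 4 of the 99 and all below for 12, beside 8.03% and 9.03% of all probe sets. The median difference over the 99 genes was -0.01. Their values ran from -0.29 for Phlda2 to 0.23 for Hrk.

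Of 31 regulators of p53, 29 were measured, with 16 positive and 13 negative differences and a median of 0.01. Atr, a kinase that responds to stalled replication forks and phosphorylates p53, had log2 intensities of 8.41, 8.39 and 8.51 in knockout pools, against 8.29, 8.23 and 8.19 in heterozygote pools. All knockout pools of Atr lay above the heterozygote pools, at a log2 difference of 0.20 with a standard error of 0.06 (limma, adjusted p = 0.399). Chek2, a checkpoint kinase that stabilizes p53, and Daxx, a partner of Mdm2, had differences of -0.11 each, with all knockout pools below the heterozygote pools and adjusted p-values of 0.504 and 0.536. Trp53rkb, a p53-related kinase gene, was at 0.09. The kinase Atm, at -0.07, and the p53 phosphatase gene Ppm1d, at 0.05, did not differ beyond the spread of the pools.

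Of 49 further p53 targets, 46 were measured, with 20 positive and 26 negative differences and a median of -0.0071. Before adjustment, 2 were higher and 2 lower at a p under 0.05, or 4.35% each way, beside 5.97% and 4.66% of all probe sets. Among 12 targets that act in cell cycle arrest, Rprm, which holds cells in G2, had log2 intensities of 7.26, 7.27 and 7.39 in knockout pools, against 7.09, 7.12 and 7.01 in heterozygote pools. Its groups did not overlap, at a log2 difference of 0.23 with a standard error of 0.06 (limma, adjusted p = 0.391). Gadd45a, a stress gene of growth arrest and DNA repair, lay the other way at -0.14, with all knockout pools below the heterozygote pools (adjusted p = 0.491). Sfn was at -0.13 and Zfp365 at 0.07, both with overlapping groups.

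Among 15 further apoptosis targets, 9 were positive and 6 negative. Pidd1, a scaffold for caspase 2, was at -0.15 (limma, adjusted p = 0.445) and Siva1 at -0.13 (adjusted p = 0.478), both with all knockout pools below the heterozygote pools. Zmat3, an RNA-binding regulator of splicing, was at 0.09 with non-overlapping groups and Tnfrsf25 at 0.08. Pmaip1, which encodes the BH3-only protein Noxa, was at 0.01, and the death receptor gene Tnfrsf10b at 0.05.

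Of 22 targets of repair, metabolism and stress, 19 were measured, with 5 positive and 14 negative, while 49.7% of all probe sets were positive. Their median was -0.0285. Probe sets within 0.5 log2 units of Trp53inp1 and of Sesn2 had medians of -0.0347 and -0.0384, so a lean to negative values was not particular to this list. The part of that shift in these values was not tested. Ddit4, an inhibitor of mTORC1 that hypoxia also induces, had log2 intensities of 8.09, 8.01 and 7.83 in knockout pools, against 7.87, 7.78 and 7.66 in heterozygote pools. Knockout replicate 3 of Ddit4 lay below heterozygote replicate 1, and the log2 difference was 0.21 with a standard error of 0.09 (limma, adjusted p = 0.456). Rrm2b, a ribonucleotide reductase subunit for DNA repair, was at -0.16 with all knockout pools below the heterozygote pools (adjusted p = 0.466). Dgka was at -0.21, where heterozygote replicate 2 was the high pool, and Tap1 at 0.11.

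**Figure D4:**
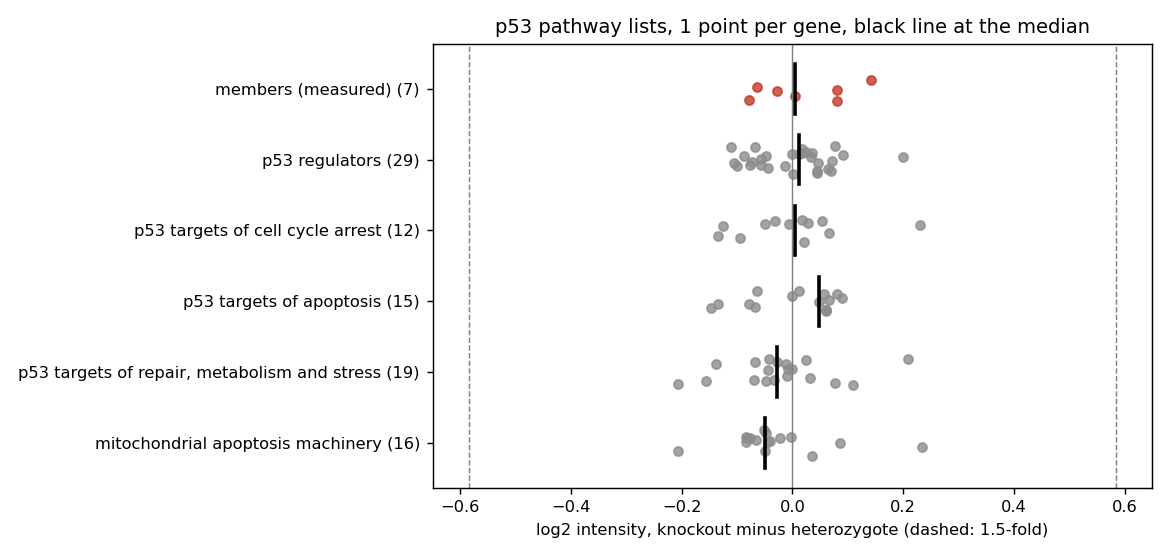
Log2 difference, knockout minus heterozygote (horizontal axis), of the 7 measured genes (red points) and of every measured gene on 5 pathway lists (gray points, number of genes in brackets), with a black line at the median of each row and dashed lines at 1.5-fold. The medians lie between -0.05 and 0.05, and no point reaches the dashed lines.

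Of the mitochondrial route to apoptosis, on which Puma and other BH3-only proteins act, 16 of 18 genes were measured, and 13 of the 16 had negative differences, with a median of -0.05. Over all probe sets, 49.7% of differences were positive. Bak1, a pore former of the outer membrane that acts in parallel with Bax, had log2 intensities of 10.51, 10.31 and 10.28 in knockout pools, against 10.51, 10.58 and 10.62 in heterozygote pools. All knockout pools of Bak1 lay below the heterozygote pools, although replicate 1 of both genotypes had the same value to 2 decimals. The log2 difference of Bak1 was -0.21 with a standard error of 0.07 (limma, adjusted p = 0.419). Hrk, a BH3-only gene of neurons, lay at 0.23 with overlapping groups (adjusted p = 0.455). The other values of this list lay between -0.08 for Diablo, which encodes an antagonist of caspase inhibitors, and 0.08 for Bcl2, which opposes apoptosis. For Bad, Cycs, Diablo and Bak1 all knockout pools lay below the heterozygote pools, which is 4 of 16 beside a background of 9.03%. Bright probe sets leaned lower as a whole, and the part of that shift in these values was not tested.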

How the data were processed

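Heads of E8.5 embryos, pooled by 4, gave 3 knockout and 3 heterozygote arrays, grouped by the sample titles. Per the labels, the deposited values are intensities from RMA, run by the authors in Affymetrix Power Tools (version not given in the sources used here). These values run from 2.53 to 11741 on a linear scale, and log2 was taken. Of 35556 rows, 21789 have exactly 1 gene symbol in the platform annotation and were tested. 1621 rows have several symbols and 12146 have none listed. For 21698 of the tested rows the gene number was found in a RefSeq table of GRCm38.p6, and the symbol given there was used, whether or not it differed. The other 91 kept the symbol of the annotation. The probe set with the highest mean stood for a gene. Genotypes were compared in R 4.3.3 by lmFit and eBayes of limma 3.58.1 without covariates, and p-values were adjusted by Benjamini-Hochberg over all tested probe sets. The script was tested on simulated data. Precision is limited by the number of arrays, and the p-values reflect only how far these pools differ from each other. Probes that also bind related transcripts could not be checked.

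The 10 genes and the lists were chosen with earlier results of these data known, so counts over them are descriptions. Named are the 7 genes, Jarid1b, the 2 highest and 2 lowest of each pathway list, its genes at an unadjusted p under 0.05 with non-overlapping groups, and marker genes, of which a selection was made after their values were seen. Atm, Ppm1d, Pmaip1, Tnfrsf10b, Bad, Cycs and the genes around Jarid1b were named after their values were seen. Alternatives left out dim probe sets (under a log2 intensity of 6.45 on 4 or more arrays), tested all rows, averaged probe sets per gene, changed the normalization, the variance model or array weights, used the replicate number as a blocking term, and dropped each pool in turn. The Y-linked covariate was added after seeing the data.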

Additional observations from a re-analysis of the deposited data

How the results depend on the processing

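Over 16 alternatives the 7 genes gave 111 values, of which none passed the adjusted threshold of 0.05 in limma (lowest adjusted p = 0.395) and 8 turned in sign, since differences near 0 have no firm direction. Bbc3 gave no value without dim probe sets. Ccng1, Mdm2, Trp53inp1 and Bbc3 kept their direction throughout, Ccng1 between 0.08 and 0.22, but their sizes moved by over 1.5 times: Mdm2 lay between 0.0261 (without knockout replicate 1) and 0.1328, Trp53inp1 between 0.0232 (without knockout replicate 3) and 0.142, and 0.0242 with the Y-linked covariate, and Bbc3 between -0.1134 (without knockout replicate 2) and -0.0351 (without knockout replicate 1). Sesn2 was at 0.0158 after quantile normalization and at 0.0045 after cyclic loess, Mdm4 at -0.001 with array weights, and Phlda3 at 0.0011 with the Y-linked covariate. Leaving out 1 pool at a time gave -0.0145 to 0.0192 for Mdm4, -0.144 to 0.0129 for Phlda3 and -0.0876 to 0.0057 for Sesn2. The median over the genes was 0.047 after quantile normalization. There, and without knockout replicate 1, 1 of the 7 (Ccng1, at 0.19 and 0.22) had an unadjusted p under 0.05. Of all probe sets, 4.11% were higher and 4.13% lower after quantile normalization, and 6.35% and 4.94% without that pool. Leaving out pools gave 0 to 1 of the 7 genes.

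Among the 99 pathway genes at an unadjusted p under 0.05, 7 of the 79 left were lower and 4 higher without dim probe sets. The background was then 10.5% lower and 2.44% higher. After quantile normalization 1 of the 99 was lower and after cyclic loess 2 were, beside 4.13% and 4.26% of all probe sets. When all rows were tested 2 were higher, beside 5.08%. Leaving out pools gave 2 to 3 higher and 1 to 4 lower, beside 4.72% to 6.35% and 2.84% to 4.94% of all probe sets. Without dim probe sets, 267 of the 10962 left were higher and 1151 lower, which is 18.8% of these calls higher, against 56.2% over all 21789. That share was 48.9% after cyclic loess and 43.1% with limma's trend and robust options. Leaving out pools gave 619 to 1077 lower, with 664 without heterozygote replicate 2 and 619 without heterozygote replicate 3. It also gave 1 to 2 at an adjusted p under 0.05, where the second was Uty without heterozygote replicate 2. The cause of these moves was not tested.

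Deviations from the group means correlated at 7.59e-04, 0.106 and -0.013 between the knockout and heterozygote pools of numbers 1, 2 and 3. Between pools of unlike number the correlations lay between -0.0826 and 0.0795. On so few pools, this does not settle whether replicate numbers paired them. With the replicate block, 1320 probe sets were higher and 861 lower at a p under 0.05 before adjustment, 1 (Jarid1b) passed when adjusted, and Ccng1 stayed at 0.14 (limma, adjusted p = 0.591). Depth is not defined for arrays. With 3 pools per genotype, differences within the intervals given are not excluded. These intervals are not limits of detection, since Phlda2, at -0.29, did not pass either (limma, adjusted p = 0.413).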

Other observations

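Relatives of the listed genes were measured as well. Phlda2, an imprinted paralog of Phlda3 that limits growth of the placenta, had log2 intensities of 9.90, 9.97 and 9.77 in knockout pools, against 10.12, 10.02 and 10.37 in heterozygote pools. All knockout pools lay below the heterozygote pools, and the log2 difference of -0.29, with a standard error of 0.10, was the most negative of the 99 pathway genes (limma, adjusted p = 0.413). Heterozygote replicate 3 was the highest pool for both Phlda2 and Phlda3. The other paralogs lay closer to 0, from Sesn3 at -0.08 to Ccng2 at 0.03, with the CDK inhibitor gene Cdkn1c at 0.02. Of the p53 family, Trp63, which marks surface ectoderm, was at -0.08 and Trp73 at 0.02, both with overlapping groups.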
